A study of Caenorhabditis elegans with 2 samples.

Results

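The 8 genes act-5, erm-1, eps-8, plst-1, pept-1, nhx-2, pbo-4 and inx-16 encode proteins of the intestine of Caenorhabditis elegans. These proteins serve its actin scaffold, its membrane transport and the coupling of its cells. The genes were chosen by name, as 8 of 19985 protein-coding genes. The binding of the GATA factor ELT-2 at these genes was described from lists of called ChIP-seq peaks. Chromatin came from whole late embryos of the hermaphrodite strain OP56, genotype unc-119(ed3) III; wgIs56, taken 4 hours after egg bleaching. The transgene wgIs56 makes ELT-2 with a C-terminal GFP-FLAG tag, the immunoprecipitation was done with an anti-GFP antibody, and the labels name no change in the resident elt-2 gene. There was 1 group with 2 biological replicates, and whether these came from separate cultures is not given, so their spread may be partly technical. Both replicates carry the transgene on the unc-119 background, control libraries were not analysed here, and a peak is a called position. The material is the whole embryo, so a signal is an average over cells that hold ELT-2 and cells that do not.

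ELT-2 is the main GATA-type zinc finger factor of the differentiating worm intestine and recognises DNA around the letters TGATAA. The worm gut is a single-layered tube whose cells carry a brush border of microvilli on the side facing the lumen. ACT-5 is the actin of these microvilli, ERM-1 is the ezrin-radixin-moesin protein that ties actin to the apical membrane, EPS-8 caps and bundles actin filaments in microvilli, and PLST-1 is plastin, an actin bundler. PEPT-1 takes up oligopeptides from the lumen together with protons, and NHX-2, a sodium-proton exchanger of the same membrane, moves protons back out. PBO-4, also called NHX-7, is a sodium-proton exchanger of the posterior gut whose released protons signal to muscle during defecation, and INX-16 is an innexin, a gap junction subunit through which gut cells are coupled.

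The locus of a gene ran from 5000 bp upstream of its annotated 5′ end to its 3′ end. In these 8 loci, 12 summits of the thresholded list were found. The sequence around 5 of the 12 is shown because these summits carry the main features of the loci, which are sites at the summit, sites beside it, or no TGATAA. Each run is the 121 bases centred on the summit of the pooled peak in the build ce11 (WBcel235), read from the RefSeq genome of that assembly. It is written 5′ to 3′ along the strand on which the gene is transcribed. Capitals mark TGATAA, or TTATCA where the site lies on the other strand. For pbo-4 they mark the shorter word GATAA or its complement TTATC.

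act-5, summit 181 bp upstream, chrIII:13606187-13606307, minus strand: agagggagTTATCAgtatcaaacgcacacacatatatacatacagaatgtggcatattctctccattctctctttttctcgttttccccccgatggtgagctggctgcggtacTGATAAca
pept-1, summit 102 bp upstream, chrX:6456710-6456830, plus strand: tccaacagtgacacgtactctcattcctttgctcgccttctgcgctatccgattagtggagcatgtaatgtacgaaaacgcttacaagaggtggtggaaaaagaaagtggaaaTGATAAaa
nhx-2, summit 122 bp upstream, chrII:7694019-7694139, minus strand: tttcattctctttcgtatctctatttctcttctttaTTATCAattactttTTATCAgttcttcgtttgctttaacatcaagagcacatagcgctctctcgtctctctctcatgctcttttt
nhx-2, summit 1820 bp upstream, chrII:7695717-7695837, minus strand: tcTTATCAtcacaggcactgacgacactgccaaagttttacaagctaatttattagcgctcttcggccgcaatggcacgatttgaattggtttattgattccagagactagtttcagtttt
pbo-4, summit 3382 bp downstream in intron 14, chrX:10957456-10957576, plus strand: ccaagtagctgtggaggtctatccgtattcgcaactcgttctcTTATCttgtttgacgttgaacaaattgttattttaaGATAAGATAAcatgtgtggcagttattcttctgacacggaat

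The windows differ in where the site lies. At nhx-2 both sites of the proximal peak lie close to the centre of the run. At act-5 the central 100 bp hold no whole site, and a site stands near each edge of the run. In the pbo-4 window 3 copies of GATAA occur, each preceded by A, and none is TGATAA.

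Of the 8 genes, 6 had at least 1 thresholded summit in the locus, against 28.4% of all protein-coding genes treated in the same way. The promoter window of a gene covered, for each of its transcripts, 1000 bp before the start and the first 200 bp after it. It held a summit at 4 of the 8, act-5, pept-1, nhx-2 and inx-16, against 13.7% of all genes. With an entry among the 4098 strongest of replicate 1 and another among the 4098 strongest of replicate 2, the count of loci was again 6, against 23.6%. The genes erm-1 and plst-1 had no thresholded summit. These counts describe genes chosen for their role with earlier results of these data known, and no test was made on them.

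The share of genes with a summit differed with locus length. When all genes were ordered by locus length into 5 classes of 3997, the share with a thresholded summit was 22.4% in the shortest class, 21.5% in the next and 39.0% in the longest. The loci of pept-1, eps-8, plst-1 and erm-1 belonged to the longest class, with 39.0%. Those of nhx-2, pbo-4 and inx-16 belonged to the next, with 32.2%. That of act-5, at 6.66 kb, belonged to a class with 21.5%. Together the 8 loci covered 92.9 kb and held 1.29 thresholded summits per 10 kb, against 0.406 per 10 kb of the nuclear genome. In the pooled list, which holds weak entries and background too, they held 54 entries, or 5.81 per 10 kb against 2.99 in the nuclear genome. The nuclear genome also holds sequence outside such loci, so these bases are unlike. No density over the loci of all genes was computed.

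**Figure D1:**
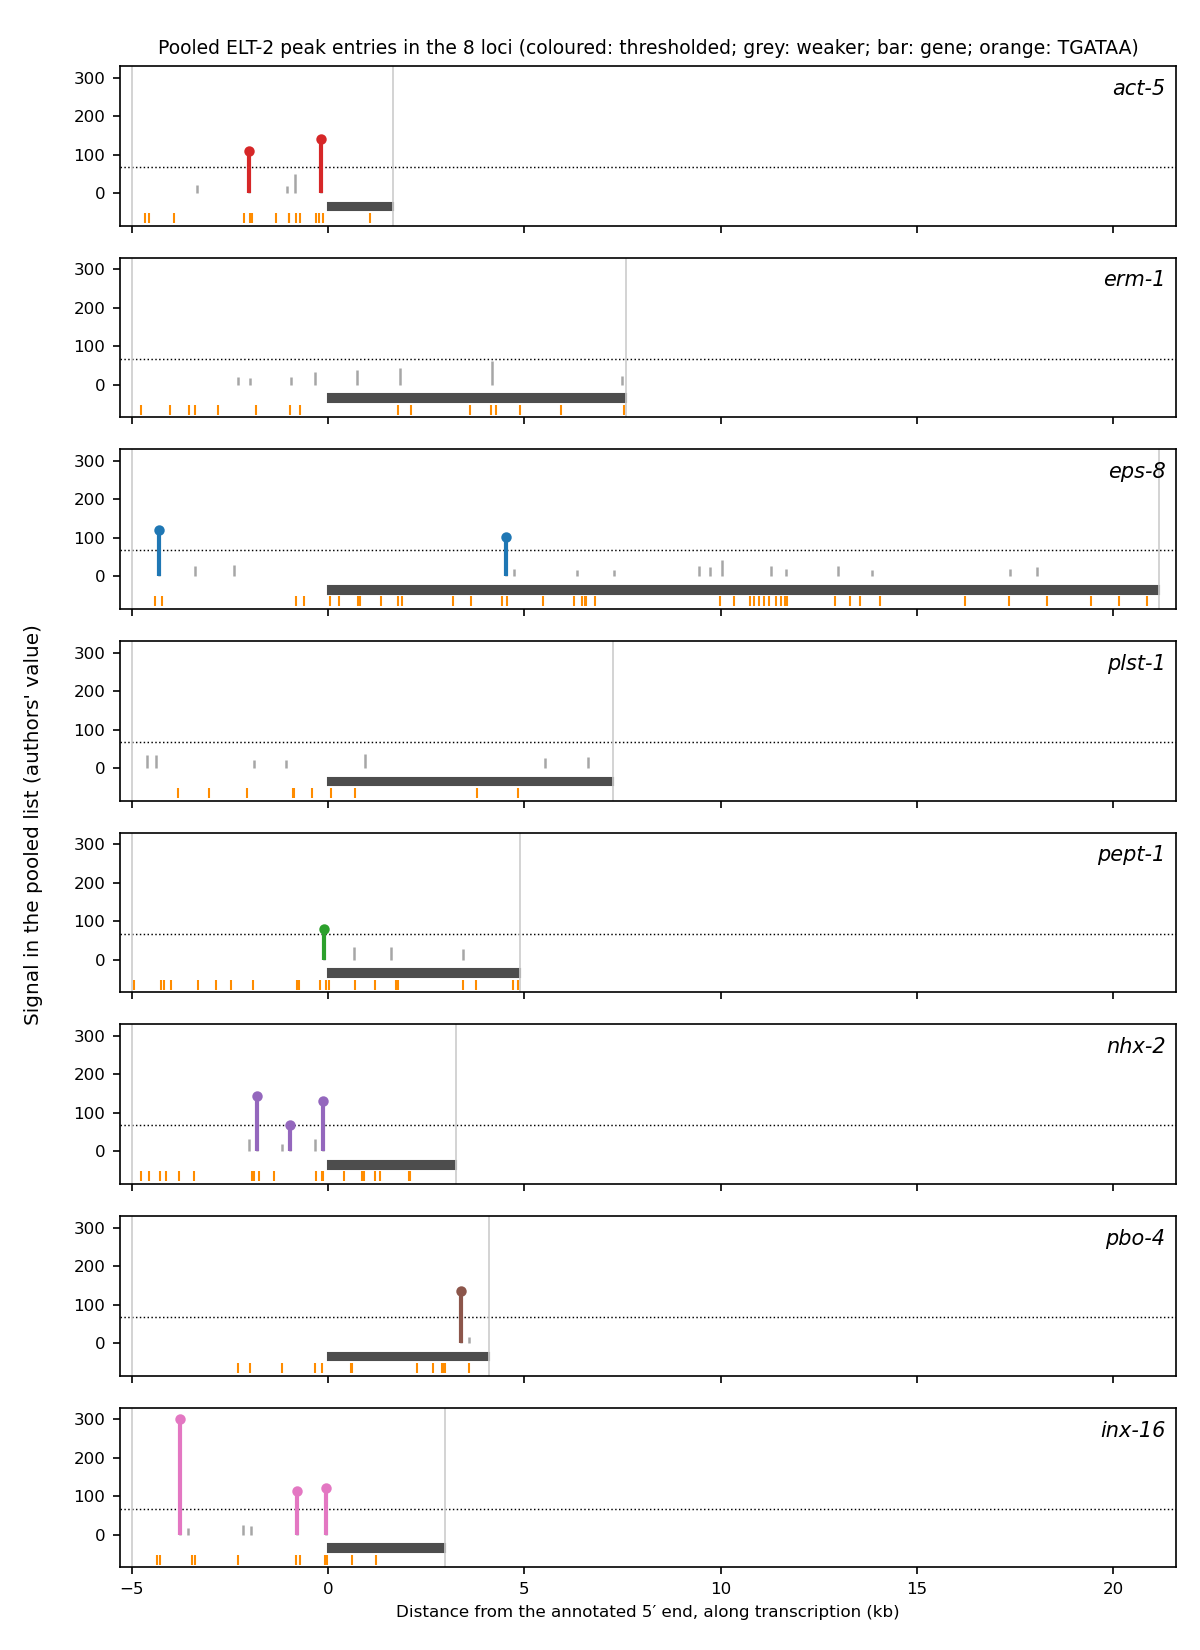
Each panel is 1 of the 8 loci, with the distance from the annotated 5′ end along transcription in kb on the x axis and the signal of every pooled entry on the y axis. Coloured stems with dots are thresholded summits, grey stems are weaker pooled entries, the dark bar is the gene, orange ticks are TGATAA sites, thin vertical lines bound the locus and the dotted line is the lowest thresholded signal of 67.6. The loci of act-5, pept-1, nhx-2 and inx-16 have coloured stems just before the bar, that of pbo-4 has one near its 3′ end, and those of erm-1 and plst-1 have none.

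The signals of the 12 summits were moderate within the list. The median was 121, against 108 over all 4098 thresholded peaks, whose signals ran from 67.6 to 1740, and 9 of the 12 exceeded 108. For the 6 genes with a summit, from 75.7% (pept-1) to 98.1% (inx-16) of all protein-coding genes had a weaker strongest summit or none. These shares are high for any gene with a summit, since only 28.4% of all genes had one in the locus. Among the genes with one, the median strongest signal was 119. The value for inx-16 rests on a summit of signal 301 inside the neighbouring gene R12E2.8, and without it the strongest of that locus was 121. The signal is the authors' own value for a peak, with a scale that is not stated. Levels are compared here within a list, rank 1 being the strongest peak, and between replicates only against the ratio seen over all matched peaks. For the thresholded and pooled lists the ranks are the same down to 4098, since the thresholded peaks were the 4098 strongest pooled ones. The deposited −log10 q-value was at the highest value in the list, 3.58, for 8 of the 12 summits and for 46.1% of all thresholded peaks.

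Among the genes of the microvillus actin core, act-5 (WBGene00000067, chromosome III, 13604412 to 13606066, minus strand) was the only one with a summit in the promoter window. This summit lay in intergenic sequence 181 bp upstream of the 5′ end, with a pooled signal of 139 and rank 1299. In replicate 1 the matching peak had a signal of 95.6 and rank 818. In replicate 2 it had a signal of 39.1 and rank 3313. The peak was thus well up in replicate 1 and in the lower part of the 4098 strongest in replicate 2, although the summits of the replicates lay only 8 bp apart. Its signal was 2.45 times as high in replicate 1, where the median ratio over 4089 thresholded peaks matched in both replicates was 1.15. On the log2 scale the ratio was 1.29, the SD over these peaks was 0.53, and 97.2% of the peaks had a lower ratio. Neighbouring thresholded peaks could match the same entry of a replicate, so this SD is not the spread between replicates alone.

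A second act-5 summit lay 2009 bp upstream, with a signal of 109 and rank 2018. It fell in the coding part of exon 1 of shpk-1, a gene transcribed in the other direction, 55 bp inside its 5′ end, and the replicate summits fell in the 5′ UTR of the same exon. The signals there were 58.7 in replicate 1 and 49.1 in replicate 2, with ranks 2101 and 2310. This peak therefore stood at like ranks in both replicates and, by distance, belongs to shpk-1 rather than act-5. In replicate 2 it was the stronger of the act-5 locus, and in replicate 1 the promoter peak was. Between them the pooled list had a weaker entry 840 bp upstream, with a signal of 49.6, rank 6019 and a TGATAA site. It had another 1050 bp upstream, with a signal of 19.1, rank 24307 and a TGATAA site. Neither entry reached the thresholded list.

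The eps-8 locus (WBGene00001330, chromosome IV, 14879484 to 14900653, plus strand) was the longest, with 12 transcripts that start at 8 different 5′ ends. It held thresholded summits only outside the promoter windows. One lay 4529 bp downstream of the outermost 5′ end, in intron 1, 1675 bp upstream of an internal 5′ end. The pooled signal there was 101 and the rank 2265. The replicates gave 48.6 and 49.8, with ranks 2857 and 2249, and their summits were 1 bp apart, the closest of the 12. The other lay 4315 bp upstream, with a signal of 120 and rank 1699. Its replicate signals were 69.9 and 55.8, at ranks 1532 and 1835, but the summits of the replicates were 79 bp apart. The pooled summit was 1 bp from an annotated non-coding RNA gene, and no protein-coding 5′ end was nearer than that of eps-8. Besides these, 14 weaker pooled entries lay in the locus, and none had a signal above 42.1.

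For erm-1 (WBGene00001333, chromosome I, 5284026 to 5291604, minus strand) the pooled list held 8 entries, all below the thresholded range. The strongest lay 4174 bp downstream of the 5′ end in an intron, with a TGATAA site within 50 bp, a signal of 61.7 and rank 4576. In replicate 2 the entry 4177 bp downstream had a signal of 34.0 and rank 4043. In replicate 1 the entry of that region lay 4275 bp downstream, with a signal of 28.9 and rank 6148. It was within the 4098 strongest in replicate 2 alone. Entries at the 5′ ends were weaker. The one 339 bp upstream had a pooled signal of 32.9, and the one 749 bp downstream, 161 bp before the inner 5′ end, had 39.2. The nearest thresholded summits lay 16694 bp upstream and 76343 bp downstream of the 5′ end.

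The plastin gene plst-1 (WBGene00022425, chromosome IV, 1289627 to 1296897, plus strand) had the weakest locus of the 8. Its strongest pooled entry, 952 bp downstream in an intron, had a signal of 37.0 and rank 8870. The signal at that entry was 23.4 in replicate 1, 975 bp downstream, and 12.7 in replicate 2, with ranks 8519 and 19161. The strongest entry of replicate 2 lay elsewhere, 6531 bp downstream, with 18.3 and rank 10301. So the replicates did not share the leading position, and both stood far below the 4098 strongest. None of its 7 pooled entries had TGATAA within 50 bp, although the locus held 10 such sites. The nearest thresholded summits were 22669 bp upstream and 89547 bp downstream.

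Of the transporters, pept-1 (WBGene00003877, chromosome X, 6456872 to 6461767, plus strand) had 1 thresholded summit, 102 bp upstream, at 6456770. Its signal of 79.1 and rank 3295 made it the weakest leading peak among the 6 genes with one. In replicate 1 the summit lay at the same base, with a signal of 40.3 and rank 3767. In replicate 2 the region was listed as separate entries. One lay 189 bp upstream with a signal of 37.8 and rank 3478, and one 18 bp downstream in the 5′ UTR with 30.2 and rank 4796. Each of these had a TGATAA site within 50 bp, which the pooled summit between them did not. An annotated non-coding RNA gene, K04E7.4, lay 124 bp from the pooled summit. The pept-1 peak is not found among the 2049 strongest thresholded peaks.

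The exchanger gene nhx-2 (WBGene00003730, chromosome II, 7690711 to 7693957, minus strand) had 3 thresholded summits upstream. For each, the nearest protein-coding 5′ end was that of nhx-2. The annotated non-coding RNA gene B0495.11 lay 362 bp from the summit 122 bp upstream. It lay 345 and 1187 bp from those 978 and 1820 bp upstream, nearer to both than the nhx-2 5′ end. The proximal summit, 122 bp upstream, had a signal of 131 and rank 1473. It reached 84.9 and rank 1044 in replicate 1, and 46.6 and rank 2521 in replicate 2. The distal one, 1820 bp upstream, had a signal of 145 and rank 1215. It reached 64.6 and rank 1769 in replicate 1, and 82.5 and rank 868 in replicate 2. The order of the pair was reversed between the replicates, the proximal peak being the stronger in replicate 1 and the distal in replicate 2. The ratios of replicate 1 to replicate 2 were 1.82 and 0.783, and 91.7% and 11.4% of all matched peaks had lower ones. With 1 value per replicate this difference could not be tested.

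Between them, 978 bp upstream of nhx-2, lay the weakest of the 12 summits, with a signal of 68.1 and rank 4063 of 4098. Its replicate signals were 34.9 and 33.1, at ranks 4677 and 4221. It was the only one of the 12 outside the 4098 strongest of a replicate, and it was outside them in both. Over all thresholded peaks, 73.1% had matches among the 4098 strongest of both replicates, by the entry with the nearest summit.

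The posterior exchanger gene pbo-4 (WBGene00003943, chromosome X, 10954134 to 10958233, plus strand) had no entry of any list within its promoter window or upstream of it in the locus. Its single thresholded summit lay 3382 bp downstream of the 5′ end, in intron 14, the last. The signal was 136 and the rank 1379. The replicates gave 76.3 and 61.7, with ranks 1305 and 1533, and summits 37 bp apart, so the peak stood at like ranks in both. The nearest protein-coding 5′ end was that of nlp-19, a neuropeptide-like protein gene, 1211 bp beyond the summit. By distance the peak is upstream of nlp-19 as well as inside pbo-4, and which of the genes it concerns was not tested. The nearest thresholded summit upstream of pbo-4 was 52128 bp away.

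The innexin gene inx-16 (WBGene00002138, chromosome I, 4162035 to 4165025, plus strand) had 3 thresholded summits. The one closest to it lay 45 bp upstream, the shortest distance to a 5′ end among the members' own peaks. Its signal was 121 and its rank 1679, with 70.9 and rank 1489 in replicate 1 and 51.1 and rank 2163 in replicate 2. A further summit 784 bp upstream, with a signal of 114 and rank 1876, lay 138 bp upstream of inx-15, an innexin gene transcribed in the other direction. Its replicate signals were 56.8 and 58.4, at ranks 2211 and 1692. Both summits fell in the promoter windows of inx-16 and inx-15 alike. By distance the summit 45 bp upstream is nearest to inx-16 and the one 784 bp upstream to inx-15. Which of the genes each concerns was not tested. The third and strongest lay 3775 bp upstream in coding exon 2 of R12E2.8, 458 bp inside that gene. With a signal of 301, rank 223, and ranks 262 and 188 in the replicates, it stood highest among the 12 in every list, though R12E2.8 and not inx-16 has the nearest 5′ end.

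**Figure D2:**
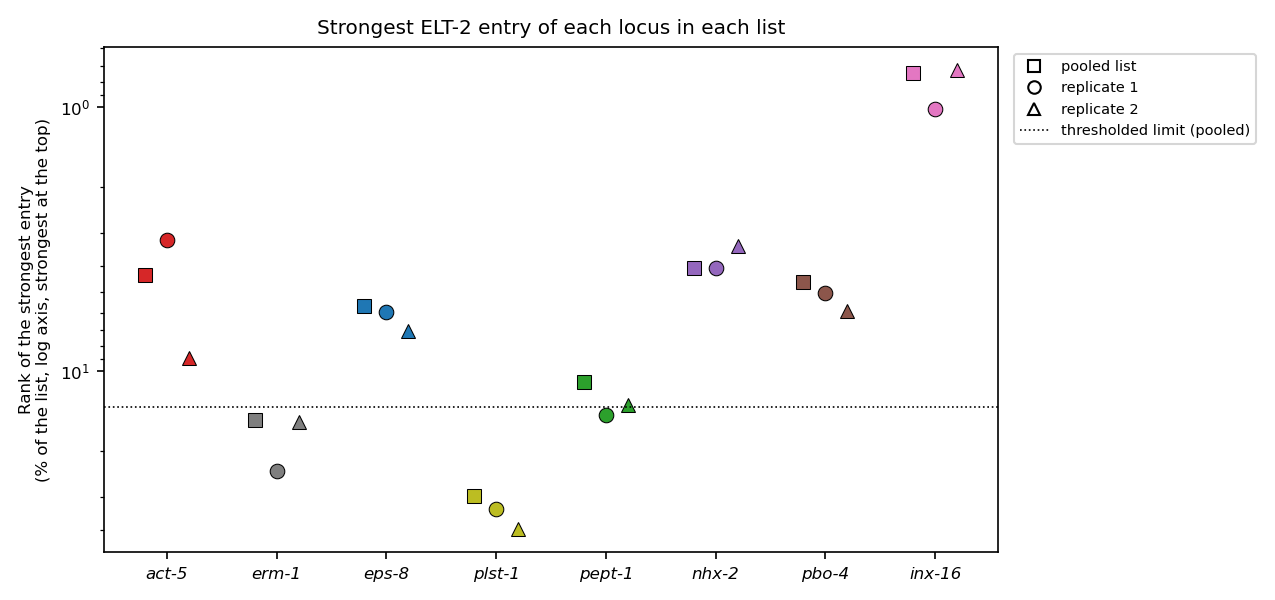
The y axis, logarithmic with the strongest at the top, gives the rank of the strongest entry of each locus as a percentage of the entries of its list, and the x axis gives the 8 genes. Squares are the pooled list, circles replicate 1, triangles replicate 2, and the dotted line is rank 4098 of the pool. The inx-16 locus is highest because of the summit inside R12E2.8, the act-5 symbols are spread widest among the 6 genes with a thresholded summit, and the squares of erm-1 and plst-1 lie below the line. The symbols of a locus can be different peaks. For act-5 the triangle is the peak inside shpk-1, while the square and circle are the promoter peak.

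The replicates gave a match for each of the 12 summits, with summits within 100 bp in both. Of all 4098 thresholded peaks, 4089 were likewise matched in both replicates, and the share within 100 bp was not computed for them. Since replicate agreement entered the thresholding, these matches are no independent support. Ratios of replicate 1 to replicate 2 lay between 0.974 and 1.39 for 9 of the 12. The other 3 were the promoter peaks of act-5 and nhx-2, with more signal in replicate 1, and the distal peak of nhx-2, with more in replicate 2. Only act-5 lay more than 2 SD from the median log2 ratio of all matched peaks, at 2.05 SD.

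**Figure D3:**
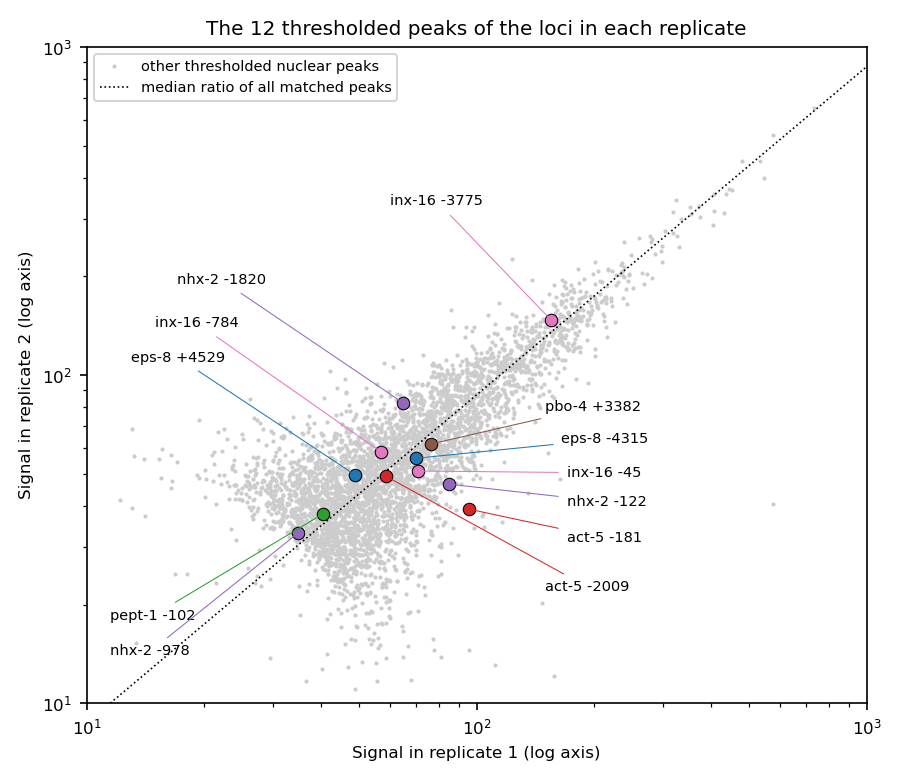
Signals in replicate 1 (x axis) and replicate 2 (y axis), both logarithmic, for the 12 thresholded peaks of the loci (coloured, with the position in bp from the 5′ end) and the other thresholded nuclear peaks matched in both replicates (grey). The dotted line is the median ratio of 1.15. The act-5 −181 peak lies farthest below the line among the 12, at 95.6 and 39.1, and the nhx-2 −1820 peak lies above it, at 64.6 and 82.5.

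TGATAA was searched on both strands, wholly within 50 bp of each summit. It was found at 5 of the 12 summits, against 43.7% of the 4076 nuclear thresholded summits. Those with a site were the inx-16 summits 45 and 784 bp upstream, the nhx-2 summit 122 bp upstream, the eps-8 summit in intron 1 and the act-5 locus summit inside shpk-1. The act-5 promoter summit, the pept-1 summit and the distal nhx-2 summit had none, yet each had a site just outside. At act-5 the sites were centred 49.5 and 55.5 bp from the summit, on either side, and the replicate 2 summit, 7 bp away from the pooled one, had the nearer of them within its 50 bp. At nhx-2 the distal summit had sites 55.5 and 63.5 bp away, and at pept-1 the nearest site was 55.5 bp away. Within 100 bp, 9 of the 12 summits had a site, against 54.3% of nuclear thresholded summits. Of the 7 summits without the word at 50 bp, 4 thus had it within 100 bp. The wider window also raised the share over all nuclear thresholded summits, from 43.7% to 54.3%, and the meaning of the added sites was not tested.

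Summits without TGATAA even within 100 bp were the nhx-2 summit 978 bp upstream, the pbo-4 summit and the inx-16 locus summit inside R12E2.8. Each of these had the shorter word GATAA, which is contained in TGATAA, within 50 bp, and pbo-4 had it 3 times, centred 15, 21 and 26 bp from the summit. GATAA was present within 50 bp at 8 of the 12 summits and at 56.7% of nuclear thresholded summits. The longer TGATAAG was present at 3 of the 12 and at 26.2%. A match describes the letters in the window and is not a site shown to be bound.

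**Figure D4:**
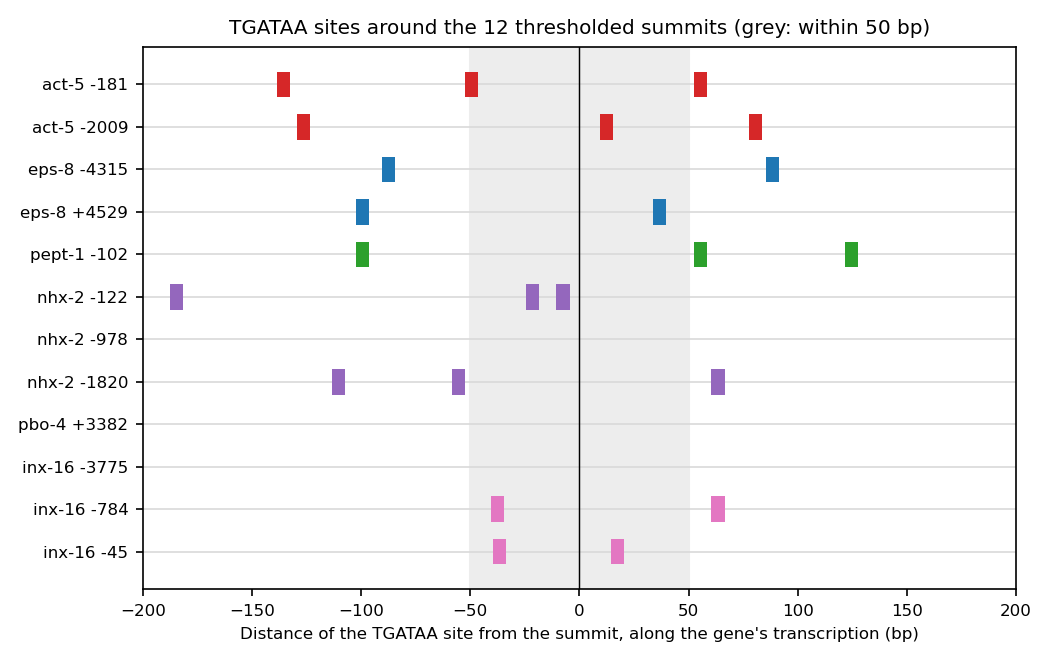
Rows are the 12 thresholded summits, named by gene and position in bp from its 5′ end, and the x axis is the distance of each TGATAA site from the summit in bp along transcription of the gene. Bars are the sites at their true width and grey marks 50 bp on either side. Both nhx-2 −122 and inx-16 −45 have 2 bars inside the grey band, those of act-5 −181 and nhx-2 −1820 stand at or beyond its edges on both sides, and 3 rows have no bar within 100 bp.

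Most TGATAA sites of the loci had no thresholded summit within 50 bp, though some of them lay inside the wider interval of a peak. The 8 loci held 148, or 15.9 per 10 kb against 10.5 per 10 kb of the nuclear genome. Of these, 7 (4.73%) lay within 50 bp of a thresholded summit, against 2.62% of the 105444 sites of the nuclear genome. Here too the genome holds sequence outside such loci, and no value over the loci of all genes was computed. By gene the numbers near a thresholded summit were 3 of 11 for inx-16, 2 of 20 for nhx-2, 1 of 15 for act-5, 1 of 42 for eps-8 and 0 for the other four. Counting any pooled entry, weak ones included, 18 of the 148 had one within 50 bp. The erm-1 locus then had 3 of its 16, and plst-1 still had 0 of 10.

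Genes of like function, taken from 5 lists by role, were treated in the same way. All 4 other actin genes had a thresholded summit in the locus, with 5 distinct summits between them, and 3 had one in the promoter window. The strongest were at act-1 (signal 312), act-2 (251) and act-4 (83.0), whose products are the actins of muscle and other cells. The act-1 to act-3 genes are near-identical neighbours, so their windows share summits and the placing of reads among them is uncertain. Of 27 annotated regulators of actin filaments and the cell cortex, 7 (25.9%) had a promoter summit and 10 (37.0%) a locus summit. The leading promoter peaks were at wve-1, a WAVE complex component that promotes actin branching (170), cap-2, a capping protein subunit (129), and unc-70, a beta-spectrin gene (116).

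Of 24 other innexin genes, 2 (8.33%) had a promoter summit, inx-15 through the peaks shared with inx-16, and inx-2 with a signal of 101. A locus summit was found at 7 (29.2%). Of 9 other sodium-proton exchanger and peptide transporter genes, 0 had a promoter summit and 4 had a locus summit. Among the defecation rhythm genes, 4 of 16 had a promoter summit and 9 a locus summit. Promoter signals among the strongest were those at aex-4, a SNAP25-like gene of the gut (133), and at unc-43, the calcium and calmodulin-dependent kinase II gene (117). The members' own share with a promoter summit, 4 of 8, was above the shares of the innexin, exchanger, defecation and actin regulator lists and below that of the 4 actins. Over all genes the shares were 13.7% for a promoter summit and 28.4% for a locus summit. The median locus was 11.2 kb long in the defecation list, 10.6 kb for actin regulators and 9.635 kb for exchangers and transporters. It was 8.3 kb for innexins, 7.09 kb for the other actins and 9.50 kb for the members, against 7.03 kb over all genes. Locus counts of these lists were not adjusted for length, and no difference between lists was tested.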

How the data were processed

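ChIP-seq peak lists of tagged ELT-2 from 2 biological replicates of 1 group were used. The 4 ce11 lists (replicate 1 with 25770 entries, replicate 2 with 25986, the pool with 30000, and 4098 thresholded) hold peaks and, except for the thresholded list, background, per the deposited file listing. The aligner, the peak caller, the threshold of the irreproducible discovery rate procedure and the reads per library were not stated in the sources used here, so the depth is unknown. The signal and the −log10 q-value are the authors' deposited values. The signal served for levels and ranks within a list. Lists in ce10 were not used, and no coordinate was converted.

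Coordinates are 1-based on ce11, read against the WBcel235 genome and Ensembl release 115, and all ce11 peaks lay inside its chromosomes. Entries of lists were matched when they overlapped by at least 1 bp, taking the nearest summit. The same entry of a replicate could thus match neighbouring thresholded peaks, and such pairs were kept in the ratios. Promoter windows, motif windows and matches are as given in the text. The nearest 5′ end of a summit was sought among protein-coding genes only. The steps were tested on 200 simulated summits in Python 3.11.15 with pandas 2.3.3. All 8 members were described. For 5 background lists, up to 3 genes with the strongest promoter summit were named, as far as a list had them. In the defecation list 1 such gene is not reported here. The members and lists were chosen with earlier results of these data known, so no test was made on them. Of the listed regulators, flna-1 and tmd-1 matched no gene name of the annotation.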

Additional observations from a re-analysis of the deposited data

How the results depend on the processing

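Leaving out 1 replicate, by taking the 4098 strongest entries of the other, gave 6 to 7 loci with a summit, 4 to 4 promoters and 11 to 12 summits in the loci. The seventh locus was erm-1, without replicate 1. The 2049 strongest thresholded peaks left 5 loci and 3 promoters, those of act-5, nhx-2 and inx-16. A promoter window from 2000 bp upstream to 500 bp downstream added eps-8, for 5. The 12 summits became 9 with a locus starting 2000 bp upstream, 9 among the 2049 strongest, and 8 with the nearest 5′ end. Counts of summits with TGATAA depended on the search. They were 3 within 25 bp, 9 within 100 bp, 3 for TGATAAG, 8 for GATAA, and 3 of 8 when only summits nearest to the member's own 5′ end were taken. The leading signal of inx-16 was 121 in place of 301 both with a locus starting 2000 bp upstream and with the nearest 5′ end, and that of eps-8 was 101 in place of 120 with the shorter locus. For pbo-4 no summit had the member's 5′ end as the nearest. Matching by summits within 100 bp, chosen after seeing the data, again gave 12. No paired analysis was possible because there is 1 group. The depth of the libraries is unknown, so what a missing peak means at erm-1 and plst-1 cannot be told from these lists.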

Other observations

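Looked at after the values were seen, 3 of the 12 summits had no TGATAA within 50 bp but had a site on either side within 100 bp. The 3 were the act-5 promoter summit, the distal nhx-2 summit and the upstream eps-8 summit, with sites 105, 119 and 176 bp apart. The same arrangement was found at 47 of 4076 nuclear thresholded summits (1.15%). At eps-8 the sites were centred 87.5 and 88.5 bp from the pooled summit, and the replicate 1 summit, 79 bp from the pooled one, lay near one of them. No test was made on this pattern, which was noticed in the same summits.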
